A study of Mus musculus with 8 samples.

Results

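The genes described here carry the symbols of proteins of the cytosolic ribosome. They were chosen by symbol alone: mouse symbols that begin with *Rpl* or *Rps* followed by a number and at most 1 of the letters a, x, l or y, plus *Rplp0*, *Rplp1*, *Rplp2* and *Rpsa*, with at least 80 counts summed over the 8 libraries. The rule found 80 genes of 82 that match by symbol and of 47937 gene IDs in all. Of these 80, 48 have symbols of the large subunit and 32 of the small subunit, and they lie on 19 chromosomes. *Rpl6l* and *Rps4l*, which the rule includes, are annotated as processed pseudogenes, and the other members as protein-coding genes. All 80 passed the filter on low counts in each comparison below.

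RNA was sequenced from bone marrow-derived dendritic cells (BMDCs), which are grown from marrow of adult mice with GM-CSF, a growth factor for myeloid cells. WT cells, from Cre-negative controls, were compared with 3xGrk-/- cells. These came from mice that carried *Vav-iCre*, a Cre active in early hematopoietic cells, with floxed *Grk2* (fl/fl) and *Grk6* (fl/fl) alleles and a germ line knockout of *Grk3* (-/-). Grk2, Grk3 and Grk6 are kinases that phosphorylate active G protein-coupled receptors and so switch off their signaling. Cells of each genotype were left unstimulated or stimulated for 24 h with 20 ng/ml lipopolysaccharide (LPS), a bacterial product that triggers dendritic cell maturation, which gives 4 groups of 2 libraries. The mice had a C57BL6/J background, were at least 8 weeks old, and the cultures ran for 8 days with GM-CSF at 20 ng/ml. The methods describe technical replicates, and nothing says that the 2 libraries of a group came from separate mice or cultures, so the p-values may measure technical spread only.

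A ribosome is built from 4 ribosomal RNAs and about as many different proteins as there are genes in this set, 1 copy of nearly every protein per particle. The mRNAs of these proteins are among the most abundant of any cell, and their translation is controlled together by the kinase mTOR through a short run of pyrimidines at the 5′ end, the 5′TOP motif, which the protein LARP1 binds. Their transcription responds to growth signals, in part through MYC. LPS-stimulated dendritic cells are known to stop dividing and to change protein synthesis as they mature.

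The 5′TOP motif is shown first because ribosomal protein mRNAs are known for it, although most of the starts searched here did not carry it. RefSeq promoter windows on GRCm38.p6 were matched for 58 of the 80 genes. At the annotated start, 12 of 58 (20.7%) carried a C followed by at least 4 more pyrimidines on the gene's own strand, against 2.49% of 27025 genes. This search looks only at 1 annotated start per gene, so a gene without a match at this position may still begin with the motif in these cells. The 30 bases around the start, 15 before it and 15 from it onward, are given for 5 genes with the motif and 1 without; capitals mark the pyrimidine run that begins at the start.
Rplp2 (chr7:141447636-141447665, plus strand): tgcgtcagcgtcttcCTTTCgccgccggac
Rps6 (chr4:86857353-86857382, minus strand): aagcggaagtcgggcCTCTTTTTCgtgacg
Rps18 (chr17:33955651-33955680, minus strand): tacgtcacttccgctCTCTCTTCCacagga
Rps27 (chr3:90213634-90213663, minus strand): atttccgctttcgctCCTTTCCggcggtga
Rpl28 (chr7:4792950-4792979, plus strand): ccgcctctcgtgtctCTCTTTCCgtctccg
Rpl10a (chr17:28328456-28328485, plus strand): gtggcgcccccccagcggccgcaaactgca
The 7-letter motif CCGGAAG, which ETS family factors can bind, was found on either strand in 39.7% of the 58 windows of 250 bases before to 50 after the start, against 9.12% of all genes. CACGTG, the E-box that MYC can bind, was found in 8.62% against 7.24%, and TATAAA in 8.62% against 14.2%. These letters are a description of the windows and no sign of binding.

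Total counts per library ranged from 4713305 to 6933358. The labels were checked first on the deleted kinases. *Grk2* was at 320 and 321 CPM (counts per 1000000 counts, on library sizes adjusted by TMM scaling) in unstimulated WT libraries and at 151 and 146 in unstimulated 3xGrk-/- libraries. *Grk6* was at 85.4 and 83.4 against 37.0 and 37.0 CPM, and *Grk3* at 338 and 341 against 267 and 263 CPM. All 3 were lower in both 3xGrk-/- libraries, but reads were counted over whole genes, so transcripts that lack only the deleted exons still count. The 9 dendritic cell markers were all detected, with summed levels of 11990 to 22520 CPM over the libraries. In the second library of LPS-stimulated 3xGrk-/- cells, 2.16% of counts lay on *Gm42418*, a gene that overlaps ribosomal RNA, against 0.273% to 0.638% in the other libraries.

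Ribosomal protein mRNAs took a smaller share of all counts in 3xGrk-/- cells than in WT cells, and a smaller share after LPS than before it. In unstimulated WT cells, 5.04% and 5.02% of gene counts lay on the 80 genes, a mean of 5.03% ± 0.0121 (SD, n = 2). In unstimulated 3xGrk-/- cells the share was 3.85% and 3.75%, which is 75.5% of the WT mean. After LPS it was 3.06% and 3.37% in WT cells and 1.88% and 1.84% in 3xGrk-/- cells, where the mean was 57.7% of that in WT cells. No 2 groups overlapped. LPS took the WT share to 64% of its unstimulated mean and the 3xGrk-/- share to 48.9%. With 2 libraries against 2, the exact two-sided permutation test gives p = 0.333 in each of the 4 comparisons, the smallest p this design allows.

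**Figure D1:**
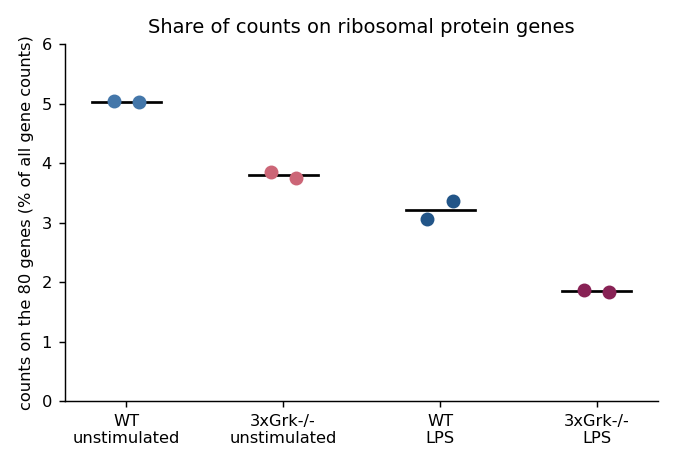
Share of all gene counts that lay on the 80 ribosomal protein genes (percent, y axis) in each of the 8 libraries (points, 2 per group), with the group mean as a black line. The shares run from 5.04% in a WT unstimulated library to 1.84% in an LPS-stimulated 3xGrk-/- library, and no 2 groups overlap.

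Both subunits lost a like part of their share. In unstimulated 3xGrk-/- cells, large-subunit genes were at 75.1% and small-subunit genes at 76.1% of their WT share, and with LPS at 57.8% and 57.5%. Nuclear genes of the mitochondrial ribosome, a separate set of proteins for translation inside mitochondria, were at 97.6% of their WT share without LPS and at 90.2% with LPS. These shares are of raw counts. With TMM scaling, the median log2 fold change of the 77 such genes tested was 0.07 without LPS and 0.08 with LPS (105% of WT). Counts are relative to the rest of the transcriptome, and in bulk RNA fewer cells of a type and less RNA per cell cannot be told apart.

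In unstimulated cells, the comparison of 3xGrk-/- with WT asks whether loss of the kinases alone changed these genes. Of the 80, 75 were called lower and 0 higher (edgeR's quasi-likelihood test, Benjamini-Hochberg adjusted p under 0.05), against 22.7% of 12000 genes called lower and 22.1% called higher over the whole table. Of 1669 genes with a mean log2 CPM of at least 7, 435 were called lower and 721 higher. The median log2 fold change of the 80 was −0.32, that is 80% of the WT level, and that of all genes tested was −0.00. The interquartile range of all genes was −0.27 to 0.22, so that the median of the 80 lay just below the lower quartile. Both 3xGrk-/- libraries were below both WT libraries for 75 of the 80 genes, as for 34.9% of all genes tested. The effect was small for each gene, and the spread between libraries was small as well (common biological coefficient of variation 0.0306). With a spread of 0.1 assumed for every gene, 25 of the 80 were called lower. The share of all genes called under that setting is not given here.

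Among genes with a mean log2 CPM of at least 3, the largest decreases without LPS were in *Rpl10a*, *Rpl28*, *Rps7* and *Rps20*. *Rpl10a* (chr17:28328471-28331033), whose protein sits on the L1 stalk beside the exit site for tRNA, had 354 and 392 CPM in WT and 239 and 231 CPM in 3xGrk-/- libraries, a log2 fold change of −0.67 (SE 0.0442, edgeR adjusted p = 3.67e-50). *Rpl28* fell from 574 and 594 CPM to 386 and 349 CPM, a log2 fold change of −0.67 (SE 0.0398). The groups did not overlap for either gene. *Rps7* (log2 fold change −0.55) and *Rps20* (−0.55), which both encode proteins of the small subunit, fell to a like degree.

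5 of the 80 genes were not called in unstimulated cells. *Rps2*, a protein near the mRNA entry of the small subunit, had 751 and 617 CPM in WT and 728 and 714 CPM in 3xGrk-/- libraries (log2 fold change 0.08, edgeR adjusted p = 0.0607). Its WT libraries lay on both sides of the 3xGrk-/- libraries, and without the first WT library it was called higher, with a log2 fold change of 0.23. *Rpl13*, named after its values were seen, was called lower (−0.15, edgeR adjusted p = 0.000545), but its WT libraries differed, with 641 and 525 CPM against 525 and 526 CPM in 3xGrk-/- cells. Without the first WT library its log2 fold change was 0.0028 (adjusted p = 0.972), and the call is also lost in DESeq2 (adjusted p = 0.556) and with all 8 libraries in the edgeR fit (adjusted p = 0.102). *Rps27l*, a paralog of *Rps27*, had 173 and 163 CPM in WT and 172 and 188 CPM in 3xGrk-/- libraries (0.10, adjusted p = 0.0954 in edgeR's test). Without the first 3xGrk-/- library it was called higher, at 0.17. The other 3 genes that were not called, *Rpl24*, *Rpl3l* and *Rps4l*, are among the 4 members with few counts described at the end.

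**Figure D2:**
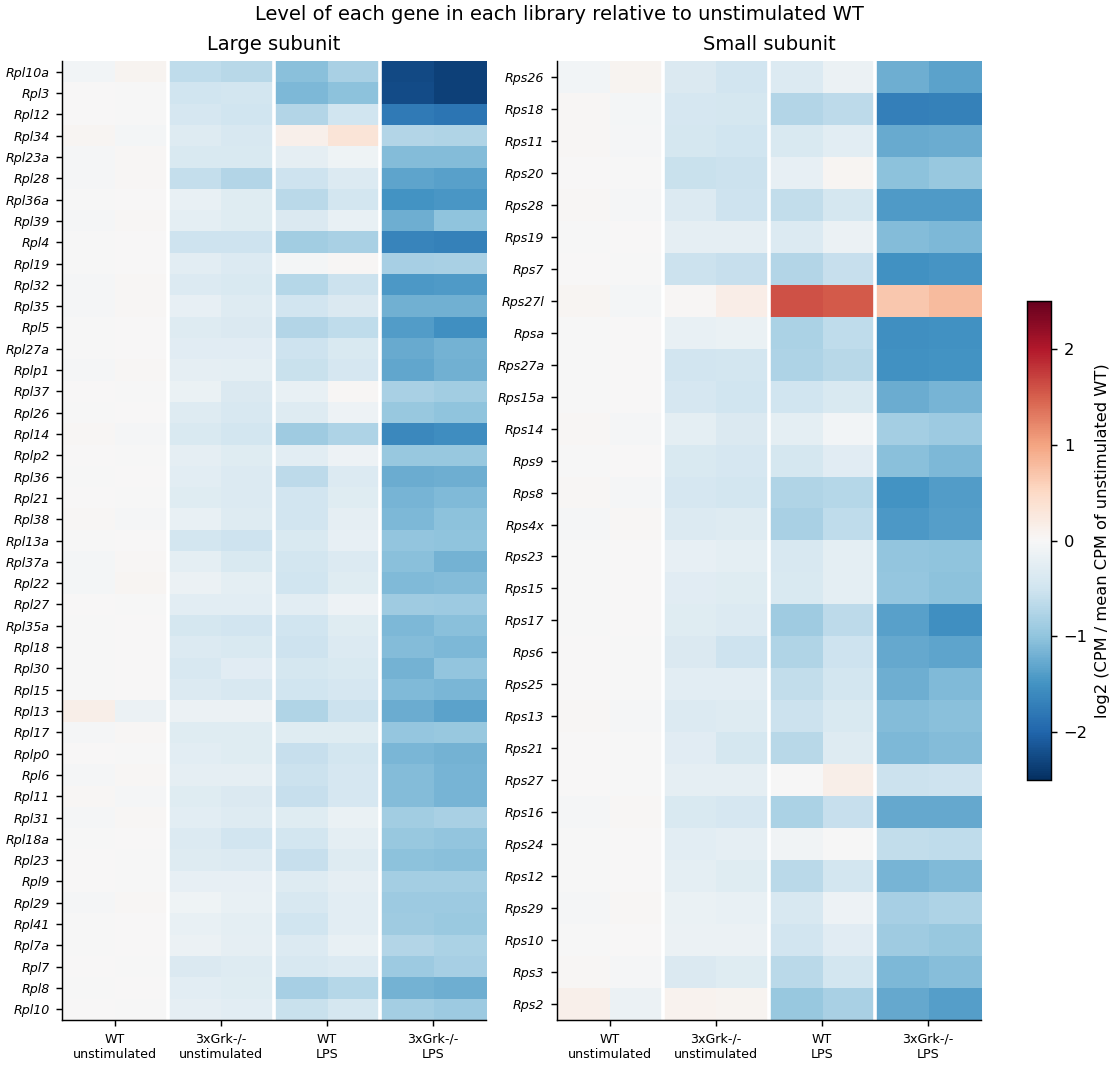
Level of 75 of the 76 genes with more than 1000 counts in each library (columns, 2 per group) as log2 of CPM over the mean CPM of unstimulated WT libraries, large subunit on the left and small subunit on the right, ordered by the genotype effect with LPS. Blue is lower and red is higher; *Rps27l* is the red row, and *Rpl10a* and *Rpl3* are the darkest rows in LPS-stimulated 3xGrk-/- cells.

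With LPS, the same comparison of genotypes gave 78 of the 80 genes lower and 0 higher, against 24% of 11830 genes called lower and 24.7% called higher. Of 1630 genes with a mean log2 CPM of at least 7, 692 were called lower and 522 higher, with a median of −0.08. The median log2 fold change of the 80 was −0.71, or 61% of WT, with a range of −1.37 to −0.33. That of all genes tested was −0.01, and their interquartile range was −0.32 to 0.35. For all 80 genes both 3xGrk-/- libraries were below both WT libraries, as for 36.6% of all genes tested. *Rpl24* (log2 fold change −0.33) and *Rpl6l* (−1.001) did not pass the test, and both have few counts.

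*Rpl10a* fell most with LPS. It had 180 and 213 CPM in LPS-stimulated WT and 78.0 and 74.4 CPM in 3xGrk-/- libraries (log2 fold change −1.37, SE 0.0832, edgeR adjusted p = 1.17e-11), or 38.6% of WT. *Rpl3*, whose protein reaches toward the peptidyl transferase center, fell from 319 and 339 CPM to 147 and 138 CPM (−1.21, SE 0.0654). *Rpl12*, whose protein lies at the base of the stalk, fell from 306 and 359 CPM to 149 and 142 CPM (−1.19, SE 0.0729). *Rps26*, which contacts mRNA upstream of the start codon, fell from 449 and 516 CPM to 244 and 226 CPM (−1.04, SE 0.0689). None of these groups overlapped. *Rpl10* had a small decrease (−0.38).

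Whether the genotype effect differed between LPS and no stimulation was tested with the interaction term in a fit of all 8 libraries. It was negative and past the threshold for 67 of the 80 genes and positive for 0, against 16% of 12541 genes below and 16.5% above 0 over the whole table. The median of the interaction term over the 80 genes was −0.37, and over all genes tested 0.01. Abundant genes in general leaned the same way: of 1671 genes with a mean log2 CPM of at least 7, 745 had a negative and 350 a positive called term, with a median of −0.16, and 76 of the 1671 are ribosomal protein genes. Without the first LPS-stimulated WT library, 75 of the 80 terms passed, among them those of *Rpl10* (−0.19), *Rps3* (−0.31) and *Rps6* (−0.35), which missed the threshold with all libraries. *Rps27l* (−0.93), *Rpl12* (−0.74), *Rpl3* (−0.74) and *Rpl10a* (−0.70) had the most negative called terms among genes with a mean log2 CPM of at least 3. With a spread of 0.1 assumed for every gene, 11 terms passed in place of 67. The share of all genes that passed under that setting is not given here.

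**Figure D3:**
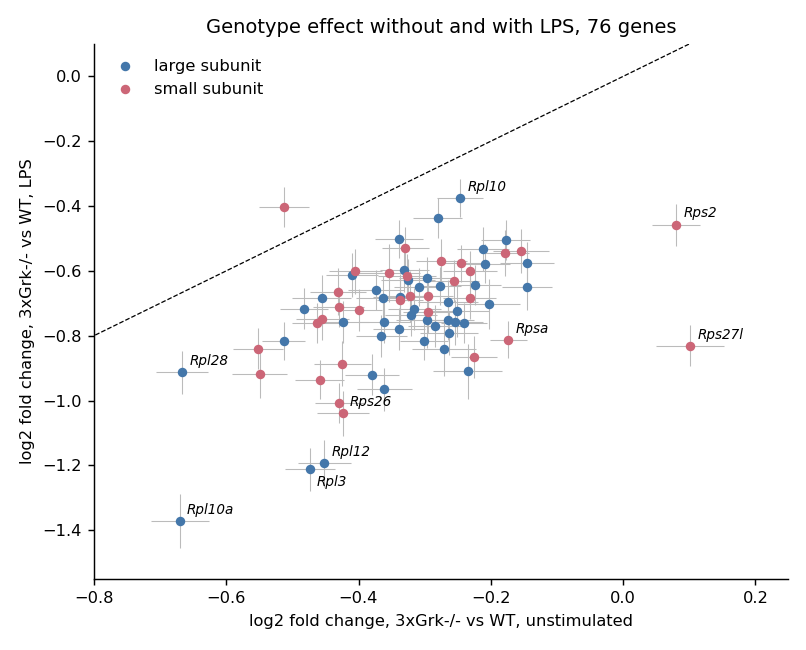
Log2 fold change of 3xGrk-/- against WT without LPS (x axis) and with LPS (y axis) for the 76 genes with more than 1000 counts, with standard errors as bars; the dashed line marks equal effects. Nearly all genes lie below the line, and *Rps2* and *Rps27l* stand apart on the right.

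Across the 76 genes with more than 1000 counts, the genotype effects with and without LPS, which come from separate libraries, had a Pearson correlation of 0.47 and a Spearman correlation of 0.41. For the LPS responses of the 2 genotypes, also from separate libraries, these were 0.88 and 0.82. These are descriptions across genes of one family, which share libraries, depth and base composition within each comparison and are not independent.

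LPS lowered most ribosomal protein mRNAs in both genotypes. In WT cells 70 of the 80 genes were called lower and 3 higher, against 30.8% and 29.5% of 12541 genes. The median of the 80 log2 fold changes was −0.42, or 74.7% of the unstimulated level, and −0.01 over all genes. In 3xGrk-/- cells 75 were lower and 1 higher, against 27.4% and 28% of all genes. Their median there was −0.77, or 58.8%, and that of all genes −0.01. Scaling by library size alone, which puts the median of all genes at −0.23 in both LPS comparisons, gave medians of −0.64 and −0.98 for the 80 genes. Their distance to the median of all genes was nearly the same under both scalings.

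**Figure D4:**
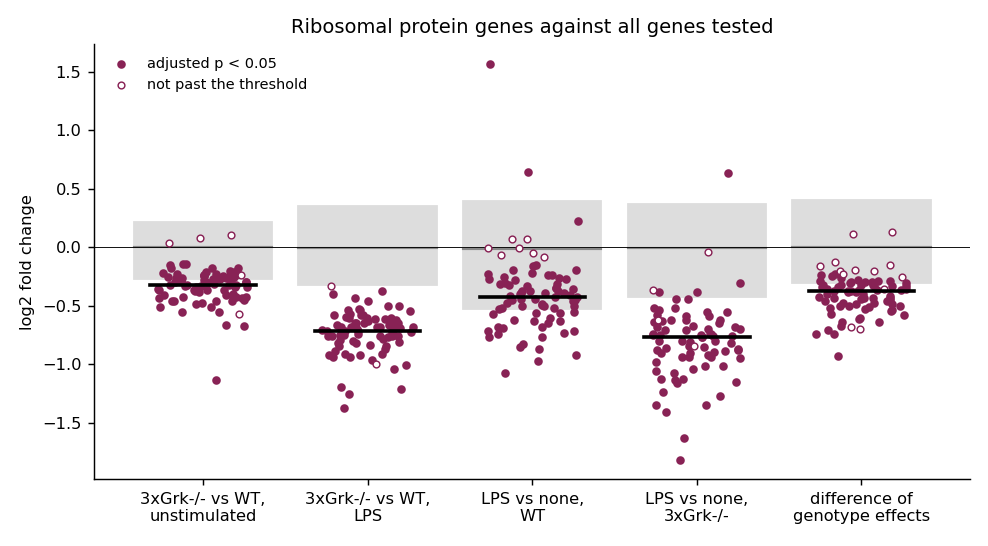
Log2 fold change of each of the 80 genes (points) in the 4 comparisons and in the difference of the genotype effects (interaction term), filled where the adjusted p was under 0.05 and open where it was not; black lines are medians of the 80 genes, gray boxes the interquartile range and gray lines the median of all genes tested. The black medians run from −0.32 to −0.77, and the points far above 0 in the LPS comparisons are *Rps27l* and, in WT cells, *Rps4l*.

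*Rpl3* had the largest decrease with LPS of the 80 genes in both genotypes. Its 698 and 689 CPM in unstimulated WT cells compare with 319 and 339 CPM after LPS (log2 fold change −1.07, SE 0.0518). In 3xGrk-/- cells it went from 494 and 505 CPM to 147 and 138 CPM (−1.81, SE 0.0557, edgeR adjusted p = 4.04e-21), which is 28.5% of the unstimulated level. *Rpl10a* (−0.92 in WT and −1.63 in 3xGrk-/- cells) and *Rps2* (−0.87 and −1.41) were also among the 4 largest called decreases in both genotypes of members with a mean log2 CPM of at least 3, a limit that leaves out *Rpl6l* (−0.97 in WT cells). *Rpl4*, a protein that lines the exit tunnel, was among them in WT cells (−0.85), and *Rpsa*, the laminin receptor homolog of the small subunit, in 3xGrk-/- cells (−1.35).

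A few genes did not follow. *Rps27l* rose with LPS in both genotypes, from 173 and 163 to 506 and 488 CPM in WT cells (log2 fold change 1.57, SE 0.0597, edgeR adjusted p = 6.96e-19) and from 172 and 188 to 267 and 291 CPM in 3xGrk-/- cells (0.63, SE 0.0605, edgeR adjusted p = 5.24e-10). *Rpl34* had 466 and 433 CPM before and 489 and 559 CPM after LPS in WT cells, a called rise of 0.22 that library size scaling took to 0.01 and that missed the threshold without the second unstimulated WT library (0.17, adjusted p = 0.0519). *Rps20*, *Rps24*, *Rps27*, *Rpl19* and *Rpl37* were not called in WT cells, with log2 fold changes between −0.08 and 0.07, whereas all 5 were lower with LPS in 3xGrk-/- cells. *Rps27* turned from 0.07 to −0.15 with library size scaling and was called higher (0.15) without the first LPS-stimulated WT library, while *Rps20* was called lower (−0.20) without the second. *Rpl19* is an example, with 744 and 747 CPM before and 721 and 765 CPM after LPS in WT cells (−0.00), and 618 and 592 CPM before and 420 and 425 CPM after it in 3xGrk-/- cells (−0.52, SE 0.0490).

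By role in the ribosome, the mRNAs of the stalk proteins and of the proteins of the 5S particle were lower in both genotype comparisons. *Rplp0*, *Rplp1* and *Rplp2* form the stalk that recruits elongation factors, and *Rpl5* and *Rpl11* bind 5S RNA. All 5 were lower in 3xGrk-/- cells without LPS (median −0.28) and with LPS (median −0.75), and all 5 interaction terms were negative and called (median −0.44). Of all genes tested 22.7%, 24% and 16% were called in these directions, and of the 80 members 75, 78 and 67 were. With a spread of 0.1 assumed for every gene, all 5 calls without LPS and all 5 called interaction terms were lost. *Rplp1* had 941 and 980 CPM in unstimulated WT cells, 821 and 806 CPM in unstimulated 3xGrk-/- cells, 652 and 715 CPM in LPS-stimulated WT cells and 391 and 415 CPM in LPS-stimulated 3xGrk-/- cells. No 2 groups overlapped for this gene. Per kilobase of exonic length *Rplp1* had the highest level of all 80 genes in each of the 4 groups, 1925 CPM per kb in unstimulated WT and 807.9 CPM per kb in LPS-stimulated 3xGrk-/- cells, where the medians over the 80 genes were 293 and 128.1 CPM per kb. *Rps29* and *Rps15* came next in every group. Exonic length here is the union of the exons of all annotated transcripts, 499 bases for *Rplp1* against a median of 1754. This order therefore depends on the annotation as well as on the level. *Rpl5* had 556 and 567, 449 and 439, 338 and 360, and 212 and 195 CPM in the same order of groups.

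The small-subunit head holds the decoding side of the particle and includes *Rps3*, at the mRNA entry, and *Rps19*, the gene most often mutated in Diamond-Blackfan anemia, an inherited failure of red cell production. All 14 listed head genes were lower in 3xGrk-/- cells both without LPS (median −0.33) and with it (median −0.65), against 22.7% and 24% of all genes tested. *Rps19* had 875 and 896 CPM in unstimulated WT and 758 and 758 CPM in 3xGrk-/- cells, and 702 and 801 against 418 and 407 CPM with LPS (interaction term −0.64, SE 0.0748). *Rps3* had a smaller genotype difference with LPS (−0.53 against −0.87 for *Rps19*), with 819 and 792 against 629 and 654 CPM without it and 505 and 585 against 369 and 386 CPM with it; its interaction term of −0.20 did not pass the test (edgeR adjusted p = 0.0542). The 19 listed genes of Diamond-Blackfan anemia were all lower in both genotype comparisons, with medians of −0.34 and −0.70, close to those of the whole family, and against the same shares of all genes. They overlap the other role lists.

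The 9 genes of proteins around the exit tunnel, where the new chain leaves the ribosome, were all lower in 3xGrk-/- cells without LPS (median −0.30) and with LPS (median −0.79), and all 9 interaction terms were called negative (median −0.50), against 22.7%, 24% and 16% of all genes tested. *Rpl4* had 1337 and 1367 against 950 and 946 CPM without LPS and 736 and 766 against 433 and 421 CPM with LPS. *Rpl39* had 223 and 232 against 193 and 185 CPM without LPS and 178 and 199 against 97.3 and 113 CPM with LPS. Neither gene's groups overlapped between the genotypes.

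Other members with known roles outside or at the edge of the ribosome followed the family. *Rps6*, the mTOR pathway's S6 kinase substrate, had 418 and 417 against 327 and 291 CPM without LPS and 247 and 290 against 173 and 167 CPM with LPS. *Rpl13a*, known as part of an interferon-activated translational inhibitor and often used as a reference gene, had 838 and 840 against 613 and 588 CPM without LPS (log2 fold change −0.48) and 646 and 733 against 421 and 417 CPM with it (−0.72). *Rpl38*, known for its part in axial patterning, fell by 0.25 without LPS and by 0.72 with LPS on the log2 scale. *Rps27a*, which is made as a fusion with ubiquitin, fell by 0.46 and by 0.76, and *Rps4x* fell by 0.34 and by 0.69. *Rpl10*, whose protein joins the large subunit late, fell by 0.25 and by 0.38. The interaction term of *Rpl10*, −0.13, did not pass the test (edgeR adjusted p = 0.168).

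The 12 genes with the 5′TOP letters at the annotated start were set beside the 46 matched genes without them, and the difference was not tested. Their medians were −0.36 against −0.29 for the genotype effect without LPS and −0.74 against −0.69 with LPS. For the LPS response they were −0.44 against −0.41 in WT cells and −0.76 against −0.78 in 3xGrk-/- cells. For the interaction term they were −0.35 against −0.39. *Rpl10a*, whose start is printed above without such a run, had log2 fold changes of −0.67 and −1.37 in the genotype comparisons, and *Rpl28*, which has the letters, also had −0.67 without LPS.

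Several members have a paralog with a pattern of its own. *Rps27l* had 39.9 and 37.6 counts per 100 counts of *Rps27* in unstimulated WT cells and 46.7 and 50.9 in unstimulated 3xGrk-/- cells. After LPS this was 118 and 102 in WT cells and 89.5 and 96.8 in 3xGrk-/- cells. The paralog thus had more counts than its partner in both LPS-stimulated WT libraries and in no other library.
*Rpl22l1*, the paralog of *Rpl22* and outside the symbol rule, had 80.6 and 76.7 CPM in unstimulated WT and 37.4 and 38.9 CPM in 3xGrk-/- cells (log2 fold change −1.04, SE 0.0858), and 69.7 and 67.8 against 24.7 and 23.8 CPM with LPS (−1.50, SE 0.106). *Rpl22* itself fell by 0.20 and by 0.70 on the log2 scale. There were 34.5 and 30.8 counts of *Rpl22l1* per 100 of *Rpl22* in unstimulated WT cells and 17.3 and 19.2 in unstimulated 3xGrk-/- cells. *Rpl7l1*, a relative of *Rpl7*, did not fall in any comparison: it had 80.4 and 81.2, 83.8 and 84.1, 83.5 and 86.3, and 94.2 and 102 CPM in unstimulated WT, unstimulated 3xGrk-/-, LPS-stimulated WT and LPS-stimulated 3xGrk-/- cells. The last of these groups was called higher than LPS-stimulated WT (0.20) and than unstimulated 3xGrk-/- cells (0.22). Per 100 counts of *Rpl7* it went from 9.71 and 9.97 in unstimulated WT to 21.5 and 22 in LPS-stimulated 3xGrk-/- cells.

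**Figure D5:**
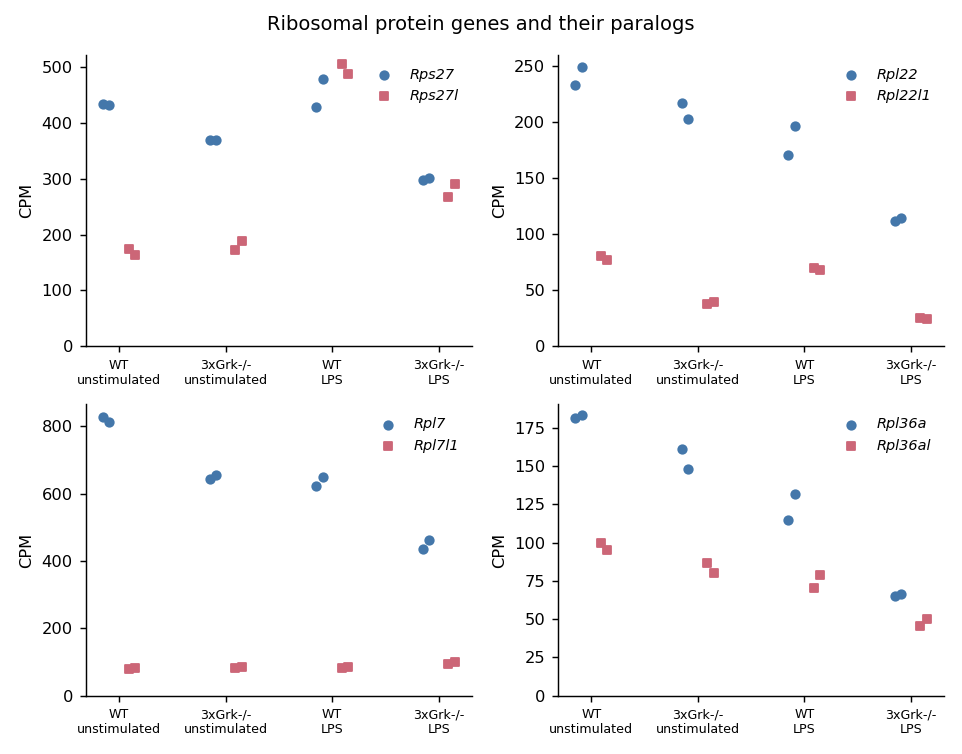
CPM (y axis, from 0) of 4 ribosomal protein genes (circles) and their paralogs (squares) in each library of the 4 groups. *Rps27l* exceeds *Rps27* in WT cells with LPS, *Rpl22l1* is lower in 3xGrk-/- cells, and *Rpl7l1* stays between 80.4 and 102 CPM while *Rpl7* drops.

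Of the ribosomal proteins whose symbols the rule leaves out, 9 genes were listed. *Rack1*, a scaffold on the small-subunit head, had 1044 and 1049 against 806 and 738 CPM without LPS (log2 fold change −0.44) and 550 and 605 against 352 and 346 CPM with LPS (−0.73). *Rps3a1* fell by 0.40 and by 0.59, and *Fau*, which encodes a ubiquitin-like fusion with a small-subunit protein, fell by 0.25 and by 0.46. In all, 5 of the 9 were lower, 0 higher and 4 not called without LPS, against 22.7% of all genes called lower and 22.1% higher. With LPS 6 of 8 tested were lower and 1 higher (*Rpl7l1*, 0.20), against 24% and 24.7%. Counts on 272 annotated pseudogenes named for a member came to between 0.749 and 0.976 per 100 member counts in every library, and they may hold reads of the parent genes.

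Genes of the machinery that makes ribosomes were called in both directions. Of 51 ribosome biogenesis genes, 18 were lower and 5 higher in unstimulated 3xGrk-/- cells (median −0.09), against 22.7% and 22.1% of all genes tested. With LPS 15 were lower and 2 higher (median −0.18), and the share called lower was near the 24% of all genes, of which 24.7% were called higher. *Fbl*, the methyltransferase of ribosomal RNA, fell by 0.57 without LPS and had a log2 fold change of −0.24 with LPS, which did not pass the test (edgeR adjusted p = 0.0578). *Npm1* and *Ncl*, which encode abundant nucleolar proteins, fell by 0.25 and 0.29 without LPS and by 0.33 and 0.31 with LPS. LPS itself lowered 44 of the 51 genes in WT cells (median −0.81) and 48 in 3xGrk-/- cells (median −0.84), against 30.8% and 27.4% of all genes. Of the interaction terms of this list, 5 were called negative and 4 positive, both below the 16% and 16.5% of all genes. Of 14 RNA polymerase I genes, 2 were lower and 0 higher without LPS and 3 lower and 1 higher with LPS, which is no more than the same shares of all genes called lower.

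Elongation factors and other mRNAs known to carry a 5′TOP start form a list of 25 genes. Of these, 14 were lower and 2 higher in unstimulated 3xGrk-/- cells (median −0.23), against 22.7% and 22.1% of all genes, and 21 lower and 0 higher with LPS (median −0.45), against 24% and 24.7%. *Eef1a1*, which delivers tRNA to the ribosome, had 6544 and 6748 against 5516 and 5438 CPM without LPS and 4769 and 4974 against 3201 and 3150 CPM with LPS (interaction term −0.34, SE 0.0498). *Eef2*, which moves the ribosome along, fell by 0.32 and by 0.58. The list was not uniform, since *Vim* rose by 0.26 without LPS and fell by 1.0003 with it, and *Tpt1* fell by 0.36 without LPS and by 0.15 with it.

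Among 28 initiation factor and mTOR pathway genes, 8 were higher and 6 lower without LPS, against 22.1% and 22.7% of all genes tested. With LPS 11 were higher and 8 lower, against 24.7% and 24%. *Mtor*, the kinase itself, had 117 and 114 against 160 and 166 CPM without LPS (log2 fold change 0.50) and 189 and 191 against 197 and 212 CPM with LPS (0.11, not called). *Larp1*, the 5′TOP-binding protein, was not called without LPS (0.04) and rose by 0.40 with LPS. *Ddit4*, an inhibitor of mTOR, had 17.8 and 16.7 against 14.7 and 11.3 CPM without LPS and 18.5 and 18.4 against 50.4 and 55.6 CPM with LPS. *Sesn2*, another inhibitor, fell by 0.54 and by 1.21. *Myc* had 35.2 and 41.2 against 27.4 and 26.7 CPM without LPS and 5.63 and 7.27 against 2.73 and 3.57 CPM with LPS, and its antagonist *Mxd1* fell by 0.35 without LPS and rose by 0.86 with it. Of 9 tested genes of the MYC network 5 were lower and 0 higher without LPS, and with LPS 5 of 8 were lower and 1 higher (*Mxd1*), against the same shares of all genes.

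Other features of the cultures moved with these groups. All 17 cell cycle genes were lower in unstimulated 3xGrk-/- cells (median −2.38 on the log2 scale), against 22.7% of all genes, with summed levels of 1382 and 1383 against 445 and 438 CPM. With LPS, 13 of 16 tested were lower, against 24%, with sums of 364 and 378 against 300 and 301 CPM, so that the gap in cell cycle genes was wider without LPS and that in ribosomal protein genes wider with it. The 8 eosinophil markers, none of them at 0 over all libraries, summed to 1150 to 1330 CPM in WT libraries and to 67.0 to 88.9 CPM in 3xGrk-/- libraries. The 10 macrophage markers, likewise all detected, summed to 1018 to 1045 against 1500 to 1555 CPM without LPS and to 407 to 413 against 2787 to 2847 CPM with LPS. Without LPS 5 of them were called higher and 4 lower in 3xGrk-/- cells, with *C1qa*, *C1qb* and *C1qc* among the lower ones (−1.61, −1.94 and −1.88), against 22.1% of all genes called higher and 22.7% lower. With LPS all 10 were called higher, against 24.7% of all genes. Neutrophil markers (10 genes) summed to 848 and 807 against 1262 and 1291 CPM without LPS and 360 and 417 against 548 and 570 CPM with LPS. Only *Mmp8*, with 103 and 106 against 727 and 773 CPM without LPS, was called higher in either state, while 5 of 10 were called lower without LPS and 6 of 9 tested with it, against 22.7% and 24% of all genes. Dendritic cell markers (9 genes) summed to 22320 and 22520 against 12250 and 11990 CPM without LPS and to 14940 and 16350 against 13200 and 12950 CPM with it. Most of these sums lay on *Cd74*, *H2-Aa* and *H2-Ab1* without LPS, when 5 genes of the list were called lower and 3 higher (*Itgax* 0.19, *Flt3* 0.95 and *Ccr7* 0.24). With LPS 7 were called lower and 2 higher. The shares of all genes were 22.7% lower and 22.1% higher without LPS and 24% lower and 24.7% higher with it. Lymphocyte markers, nearly all of whose counts lay on *Il7r* with *Gzma* at 0, summed to 105 to 167 CPM in unstimulated, 166 to 186 CPM in LPS-stimulated WT and 519 to 533 CPM in LPS-stimulated 3xGrk-/- libraries. Stromal markers summed to at most 17.4 CPM except in LPS-stimulated 3xGrk-/- libraries (145 and 134 CPM), and mast cell and erythroid markers to at most 52.1 and 16.9 CPM, with *Hba-a1*, *Hba-a2* and *Alas2* at 0. The part of cell composition and of cell division in the levels of ribosomal protein genes was not tested.

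4 members had few counts, and they are the ones nearest the minimum of 80. *Rpl24* had 120 counts over the 8 libraries, *Rpl6l* 129, *Rpl3l* 183 and *Rps4l* 259, and the next member, *Rpl36a*, had 6446. *Rpl6l*, annotated as a processed pseudogene, was called lower in unstimulated 3xGrk-/- cells (−1.13, edgeR adjusted p = 0.00152), with 4.97 and 4.63 against 2.09 and 2.26 CPM. In the GENCODE annotation 47% of the exonic bases of *Rpl24* are shared with the readthrough gene *Gm28037* on the same strand, which had 0 counts, so its value cannot be read as the level of this mRNA. *Rps4l*, annotated as a transcribed processed pseudogene, rose with LPS in WT cells by 0.65 (edgeR adjusted p = 0.0135) from 5.54 and 5.47 to 9.44 and 7.89 CPM, a call that is lost without the second unstimulated WT library (adjusted p = 0.0799) without the first LPS library (adjusted p = 0.101) and in DESeq2 (adjusted p = 0.149). *Rpl3l*, the muscle paralog of *Rpl3*, was called lower in 3xGrk-/- cells with LPS (−0.94, edgeR adjusted p = 0.0452), a call that is lost without the first WT library (adjusted p = 0.337), without the first 3xGrk-/- library (adjusted p = 0.392) and in DESeq2 (adjusted p = 0.228). *Rpl35* and *Rpl23a* share 66.2% and 59.7% of their exonic bases with genes on the opposite strand, but those genes had 29 and 484 counts in all.

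Just outside the minimum was *Rpl39l*, the paralog of *Rpl39* best known from testis, with 76 counts. It had 17 and 14 counts in unstimulated and 21 and 24 counts in LPS-stimulated WT libraries, and 0 in all 4 libraries of 3xGrk-/- cells. Against the limit that a count of 0 allows, 3 counts over the 2 libraries of a group, it was at least 10.4-fold lower in unstimulated and at least 14.6-fold lower in LPS-stimulated 3xGrk-/- cells, counting error only. *Rpl10l*, the other gene left out, had 0 counts in every library.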

How the data were processed

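The 8 libraries were made with a stranded mRNA protocol. Per the methods, the authors ran snakePipes 2.1.0, aligned reads to mm10 with STAR 2.7.3a and deposited featureCounts 2.0.0 output: raw, unnormalized read counts for each gene, as integers, with separate tables for unstimulated and LPS-stimulated cells. Annotation release, strand setting and treatment of multi-mapping reads are not given in the sources used here. Of 47937 Ensembl IDs, 47224 matched GENCODE M21 (GRCm38), whose symbols, lengths and coordinates were used; 0.0847% of counts had no symbol. Near-identical copies may share reads, so paralog and pseudogene values are uncertain.

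Differences were tested with edgeR 4.0.16 (R 4.3.3): TMM scaling, filterByExpr, glmQLFit and glmQLFTest, Benjamini-Hochberg over all genes tested, threshold 0.05, checked on simulated counts. Genotypes were compared in the 4 libraries of 1 table. LPS responses and the interaction came from all 8, which sets levels across tables that were deposited separately but count the same genes. The n is 2 per group. Total counts ranged from 4713305 to 6933358 per library, a depth that limits mainly the 4 members with under 1000 counts. Alternatives were DESeq2 1.42.0, other scalings, filters, counting of pseudogenes, length and GC offsets, a fixed dispersion, a replicate block and leaving out each library.

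Named genes were a fixed set, plus for each comparison the 4 members with the largest called change in each direction and a mean log2 CPM of at least 3; *Rpl13*, *Rpl19* and other genes outside this rule were named after their values were seen. The members, gene lists and tests were chosen with earlier results of these data known. Promoters are RefSeq (GRCm38.p6). A few genes and 1 gene list are not reported here.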

Additional observations from a re-analysis of the deposited data

Results flagged for a closer look

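The genotype effect differed between unstimulated and LPS-stimulated cells for 67 of the 80 genes by the interaction term of the 8-library fit. All 67 terms were negative, against 16% of 12541 genes called negative over the whole table. Of 1671 genes with a mean log2 CPM of at least 7, 745 had a negative called term. *Rps27l* (0.10) and *Rps2* (0.08) had no decrease without LPS, so their terms are not larger decreases. Among the genes named by rule, the most negative interaction terms on the log2 scale were −0.93 for *Rps27l*, −0.74 for *Rpl12*, −0.74 for *Rpl3* and −0.70 for *Rpl10a*. The values behind *Rps27l* go another way than those of the other 3 genes: it rose with LPS in both genotypes, and it rose less in 3xGrk-/- cells, where both libraries (267 and 291 CPM) stayed below both WT libraries (506 and 488 CPM). For *Rpl12*, *Rpl3* and *Rpl10a* the levels fell with LPS in both genotypes and fell further in 3xGrk-/- cells. Groups of 2 libraries are too small for a search for single libraries that stand apart.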

How the results depend on the processing

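The median log2 fold change of the 80 genes stayed negative in all 5 comparisons under every alternative. With library size only, it was −0.41 for the genotype effect without LPS, and −0.64 in WT and −0.98 in 3xGrk-/- cells for the LPS response; that scaling also gave 1 gene higher with LPS in WT cells and turned *Rps27* to −0.15 there. Length and GC offsets gave −0.35 without LPS, with 1 gene higher, as did no filter on low counts (1 gene higher). An assumed coefficient of variation of 0.1 left 25 genes lower without LPS and 11 negative interaction terms. The shares of all genes called under the alternative settings are not given here, so counts of members under them have no background. Without one library at a time, the genes called higher ranged from 0 to 1 in unstimulated cells (*Rps2* or *Rps27l*), from 1 to 3 for LPS in WT cells and from 0 to 1 for the interaction (1 without the second LPS-stimulated WT library), and the median interaction term from −0.46 to −0.30; genes called lower ranged from 74 to 75, 77 to 79, 66 to 72, 75 to 77 and 62 to 75 in the 5 comparisons. Likewise without one library at a time, *Rpl13* ranged from −0.29 to 0.0028 in unstimulated cells. The share of counts in unstimulated WT cells was 5.08% with pseudogene counts added, and without the 20 most counted other genes the shares were 5.56%, 4.25%, 3.64% and 2.11% in unstimulated WT, unstimulated 3xGrk-/-, LPS-stimulated WT and LPS-stimulated 3xGrk-/- cells. The cause of these shifts was not tested, beyond what each setting changes by construction. Deviations of same-numbered libraries correlated between −0.0947 and 0.155 over 7079 genes. The highest value was that of unstimulated with LPS-stimulated 3xGrk-/- cells. These values cannot show whether samples with the same number were paired. With a replicate block, 75, 78, 70, 75 and 66 genes were called lower. Low counts limit *Rpl24*, *Rpl6l*, *Rpl3l* and *Rps4l*.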
